A study of Mus musculus with 20 samples.

Results

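Aminoacyl-tRNA synthetases are the enzymes that join each amino acid to its transfer RNA, the charging step on which every round of translation depends. Cytosolic and mitochondrial protein synthesis use separate sets of synthetases, and nearly all the mitochondrial enzymes are encoded in the nucleus by genes of their own. Several cytosolic synthetases are held together in the multisynthetase complex, and resting lymphocytes are known to enlarge their translation machinery when an antigen receptor is engaged. The genes were taken by symbol: any gene with a probe set of its own whose symbol is an amino acid letter followed by "ars" and an optional 1 or 2, with Farsa, Farsb, Fars2 and Eprs. This gave 34 genes of 19938 with a probe set of a single symbol, and all 34 were among the 11968 genes bright enough to be tested. A symbol ending in 2 was read as mitochondrial, which left 18 genes on the cytosolic side and 16 on the mitochondrial side. Gars and Kars each encode both forms and were counted as cytosolic. Aars shared its only probe set with another gene and was not used, and other synthetase genes were not analysed here.

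RNA came from splenic B cells of C57BL/6 mice of mixed sex, 8 to 12 weeks old, isolated by removing CD43+ cells with magnetic beads. Wild type cells were labelled mb-1/TAK1+/+ and deleted cells mb-1/TAK1f/f, where mb-1 is a deleter active in the B lineage and TAK1 is the kinase encoded by Map3k7 that relays B cell receptor signals to NF-κB and MAP kinases. Cells of each genotype were unstimulated (0 h) or had spent 1, 3, 6 or 24 h with 10 µg/ml of anti-IgM, an antibody that crosslinks the B cell receptor. Each of the 10 groups had 2 arrays (Affymetrix Mouse Gene 1.0 ST), 20 in all. Since nothing in the labels ties the 2 to different animals or wells, every p-value here reflects only how far these arrays differ, possibly for technical reasons alone. Bulk RNA also cannot tell fewer cells of a type apart from less RNA per cell.

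The arrays read as B cells by their markers: the 7 tested genes of a pan B list of 8 lay between 10.37 and 13.72 on the log2 scale on every array. Their mean was 12.95 to 13.07 at 0 h and 11.97 to 12.05 at 6 h in wild type cells, and 12.95 to 13.01 and 11.82 to 12.06 in deleted cells. Markers of other cells moved with time and genotype. The mean of 10 monocyte or macrophage markers was 11.18 to 11.31 at 0 h, 8.33 to 8.39 at 3 h, 7.90 to 7.99 at 6 h, then 8.37 to 8.40 at 24 h in wild type cells. In deleted cells it was 11.14 to 11.27, 8.36 to 8.49, 7.81 to 7.87, then 9.85 to 9.99. The mean of 9 erythroid markers was 7.75 to 7.87 in unstimulated wild type cells and 9.60 to 9.95 in unstimulated deleted cells. Map3k7 read 10.16 to 10.71 on the 10 wild type arrays and 10.40 to 10.76 on the 10 arrays labelled as deleted, with a difference of 0.26 ± 0.14 (SE, adjusted p = 0.721 by limma) at 0 h. Which exons its probes cover is not given in the sources used here, so this probe set does not check the genotype labels.

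Values are RMA log2 intensities, on which a difference of 1 is a doubling, and levels of different genes are not compared because each probe set has a scale of its own. A gene was called when limma's adjusted p was below 0.05 within a comparison, over all 11968 genes. Changes are given ± SE from the fit, with 2 arrays in each group. The 4 times were each compared with the same 0 h arrays of their genotype, so these comparisons share samples. The arrays with the same replicate number deviated together across groups. Counts and values from a fit with the replicate number as a block are given for some of the calls it changes.

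Among the windows of 250 bases before to 50 after the annotated start (RefSeq, GRCm38.p6), 25 of the 34 genes had one, 11 cytosolic and 14 mitochondrial. The window was searched on both strands for CACGTG, the E-box that MYC binds, and for TGATGNAA, the composite element bound by ATF4 with a C/EBP partner, and no match to one overlapped a match to the other. TGATGNAA was found in 4 of 11 cytosolic windows (36.4%) and in 0 of 14 mitochondrial windows, against 2.27% of the windows of all genes tested. CACGTG was found in 3 of 11 cytosolic windows (Farsb, Iars and Tars) and 1 of 14 mitochondrial windows (Ears2), against 9.91% of the windows of genes tested. A match is a description of letters, not of binding. The 4 windows that hold TGATGNAA are shown because their genes are among the cytosolic members described next, with matches to either motif in capitals: Gars at chr6:55037751-55038050 on the plus strand, Iars at chr13:49681880-49682179 on the plus strand, Tars at chr15:11399609-11399908 on the minus strand and Yars at chr4:129189653-129189952 on the plus strand. In the Iars and Tars windows both motifs were present.
Gars: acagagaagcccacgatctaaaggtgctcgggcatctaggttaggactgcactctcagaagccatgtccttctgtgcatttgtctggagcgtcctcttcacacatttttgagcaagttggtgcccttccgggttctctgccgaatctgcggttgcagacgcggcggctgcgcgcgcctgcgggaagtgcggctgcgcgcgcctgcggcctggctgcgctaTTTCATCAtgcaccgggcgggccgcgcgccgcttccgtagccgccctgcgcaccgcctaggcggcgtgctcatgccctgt
Iars: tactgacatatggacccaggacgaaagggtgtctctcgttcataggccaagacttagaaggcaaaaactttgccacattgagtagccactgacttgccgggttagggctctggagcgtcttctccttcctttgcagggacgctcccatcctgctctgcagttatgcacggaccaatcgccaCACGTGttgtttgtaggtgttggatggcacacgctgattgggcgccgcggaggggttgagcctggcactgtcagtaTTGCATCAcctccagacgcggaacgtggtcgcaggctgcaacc
Tars: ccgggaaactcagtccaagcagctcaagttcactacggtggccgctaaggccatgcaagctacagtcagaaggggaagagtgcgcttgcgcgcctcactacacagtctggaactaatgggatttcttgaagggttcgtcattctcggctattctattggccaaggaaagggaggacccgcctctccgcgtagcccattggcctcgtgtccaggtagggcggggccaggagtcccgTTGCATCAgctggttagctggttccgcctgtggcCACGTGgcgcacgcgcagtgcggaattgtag
Yars: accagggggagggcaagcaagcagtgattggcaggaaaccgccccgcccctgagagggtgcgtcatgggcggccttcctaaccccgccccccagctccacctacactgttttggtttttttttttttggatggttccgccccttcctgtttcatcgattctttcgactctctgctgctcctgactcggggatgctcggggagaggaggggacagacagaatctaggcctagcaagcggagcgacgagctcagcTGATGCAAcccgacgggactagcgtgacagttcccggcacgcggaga

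In wild type cells the cytosolic synthetase genes rose nearly all together at 3 h and were still high at 24 h. At 3 h, 16 of 18 cytosolic genes were higher and 1 lower than at 0 h, with a median log2 change of 1.09, and at 6 h 16 were higher and none lower (median 1.16). At 24 h, 15 were higher (median 0.85). Over all genes tested, 20.9% were called higher and 23.2% lower at 3 h, 24.1% and 19.1% at 6 h, then 23.6% and 20.2% at 24 h, with medians of 0.04, 0.05 and 0.07. The genes called higher at all 3 of these times were 14 of the 18, which leaves out Sars, Farsa, Qars and Vars. The heat map by array shows 16 of the 18 cytosolic rows turning red at 3 h on all arrays of both genotypes, while Qars and Vars lay below their wild type 0 h mean there. Over the same hours the mean of the monocyte or macrophage markers went from 11.18 to 11.31 at 0 h down to 8.33 to 8.39 at 3 h in wild type cells, and its part in the result was not tested.

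**Figure D1:**
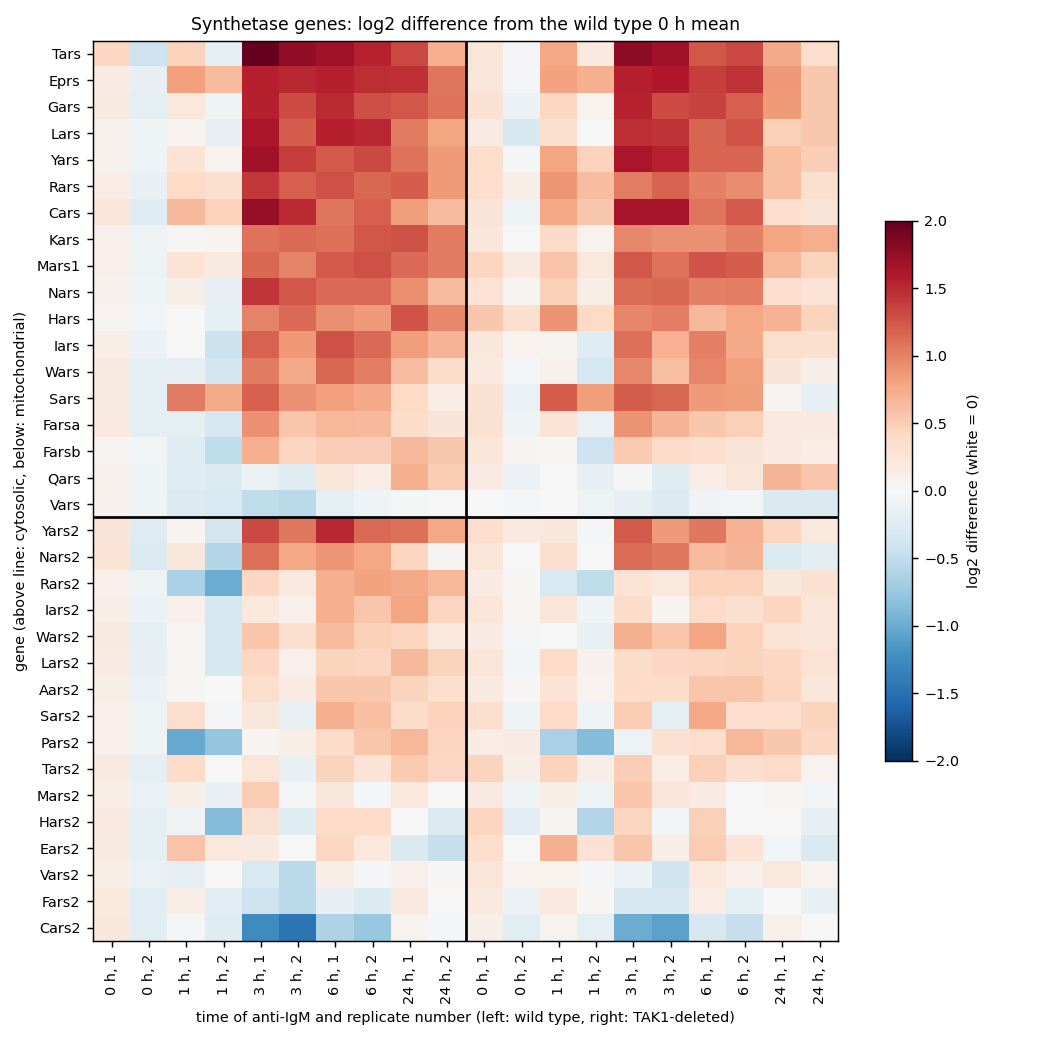
Log2 difference of each of the 34 synthetase genes (rows) from its own wild type 0 h mean on each of the 20 arrays (columns, by time and replicate number), red for higher and blue for lower. Genes are ordered within the cytosolic (above the horizontal line) and mitochondrial sets by their mean wild type change at 3, 6 and 24 h, and colours are capped at 2 on either side; most cytosolic rows are red from 3 h while Cars2, in the bottom row, is blue at 3 and 6 h.

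The largest mean changes over 3, 6 and 24 h belonged to Tars, Eprs, Gars and Lars in both genotypes. Tars, which charges threonine tRNA, read 9.09 and 8.28 in unstimulated wild type cells and 10.68 and 10.46 at 3 h, 10.36 and 10.22 at 6 h, then 10.01 and 9.39 at 24 h. All stimulated arrays from 3 h lay above both 0 h arrays, and the change at 3 h was 1.88 ± 0.28 (adjusted p = 4.41e-05). Its wild type 0 h arrays were the farthest apart of these 4 genes. In deleted cells Tars went from 8.93 and 8.66 to 10.47 and 10.36 at 3 h, a change of 1.62 ± 0.28 (adjusted p = 0.000209).

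Eprs encodes the fused glutamyl and prolyl synthetase of the multisynthetase complex. Its wild type arrays read 10.35 and 10.04 at 0 h, 11.02 and 10.83 at 1 h, 11.76 and 11.71 at 3 h, 11.75 and 11.68 at 6 h, then 11.65 and 11.27 at 24 h. Eprs had therefore risen by 1 h (0.73 ± 0.15, adjusted p = 0.00211) and reached 1.54 ± 0.15 at 3 h, with no overlap with 0 h at any time. Deleted cells gave 10.44 and 10.16 at 0 h, 11.75 and 11.79 at 3 h, then 11.06 and 10.74 at 24 h.

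Gars encodes the glycyl synthetase of both compartments and read 10.38 and 10.02 at 0 h, 11.76 and 11.51 at 3 h, then 11.45 and 11.28 at 24 h in wild type cells. The change was 1.43 ± 0.18 at 3 h in wild type (adjusted p = 1.1e-05) and 1.33 ± 0.18 in deleted cells. Lars, the leucyl synthetase, read 9.53 and 9.36 at 0 h and 11.07 and 10.67 at 3 h in wild type cells, and 9.61 and 9.13 at 0 h and 10.92 and 10.89 at 3 h in deleted cells. At 1 h neither gene was called in either genotype, and their arrays overlapped those at 0 h. The leucyl gene gained 1.42 ± 0.17 by 3 h in wild type (adjusted p = 6.53e-06) and 1.53 ± 0.17 in deleted cells (adjusted p = 3.42e-06).

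Most of the remaining cytosolic genes followed the same course in wild type cells. Cars, Yars, Nars, Rars, Kars, Mars1, Hars, Iars and Wars, which charge cysteine, tyrosine, asparagine, arginine, lysine, methionine, histidine, isoleucine and tryptophan tRNA, changed by 0.89 to 1.62 at 3 h, all of them called. Farsa and Farsb, the subunits of the phenylalanyl enzyme, rose less, by 0.73 ± 0.18 and 0.57 ± 0.15. In deleted cells Farsb read 10.27 and 10.08 at 0 h, 10.55 and 10.40 at 3 h, 10.38 and 10.29 at 6 h, then 10.21 and 10.18 at 24 h. Its changes there were 0.30, 0.16 and 0.02, and limma called Farsb at no time there without the replicate block. With the block its changes at 1 h (-0.34, adjusted p = 0.0111) and 3 h (adjusted p = 0.0152) were called. Iars was measured by 2 probe sets that differed in size: the brighter, used in the main counts, gave 1.03 ± 0.17 at 3 h in wild type and the other 1.58 ± 0.12, both called. At 24 h in deleted cells the other was called (0.53, limma adjusted p = 0.00428) and the brighter was not (0.458). The same held between the genotypes at 24 h (-0.51, adjusted p = 0.0129, against 0.13). It also held for the change from 0 h to 24 h in deleted minus wild type cells (-0.72, adjusted p = 0.0156, against 0.184).

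Qars and Vars stood apart from the other cytosolic genes in wild type cells. Qars, the glutaminyl synthetase, read 10.87 and 10.71 at 0 h, 10.66 and 10.55 at 3 h, then 11.50 and 11.30 at 24 h in wild type cells. The deleted cell arrays read 10.95 and 10.68 at 0 h, 10.77 and 10.55 at 3 h, then 11.48 and 11.34 at 24 h. It was called only at 24 h, by 0.61 ± 0.13 (adjusted p = 0.00111) in wild type and 0.60 ± 0.13 (adjusted p = 0.00238) in deleted cells, and at 24 h the genotypes overlapped. Its 1 h value in wild type, -0.26, was also called with the replicate block (adjusted p = 0.0234).

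Vars, the valyl synthetase, was the one cytosolic gene called lower than at 0 h in wild type cells without the replicate block. With the block Farsb (-0.38, adjusted p = 0.00506), Wars (-0.26, adjusted p = 0.0237) and Qars were also lower at 1 h. It read 11.94 and 11.78 at 0 h, 11.58 and 11.55 at 1 h, 11.35 and 11.32 at 3 h, then 11.83 and 11.84 at 24 h, so the 3 h arrays lay below all others of that genotype. It had changed by -0.52 ± 0.09 at 3 h (adjusted p = 0.000221), after -0.29 ± 0.09 at 1 h (adjusted p = 0.029). In deleted cells Vars read 11.86 and 11.82 at 0 h, 11.70 and 11.58 at 3 h, then 11.57 and 11.57 at 24 h. Its change there was -0.20 ± 0.09 at 3 h, not called (adjusted p = 0.0953, and 0.0285 with the replicate block), and -0.27 ± 0.09 at 24 h (adjusted p = 0.0379). That 24 h call was lost whichever array was left out, and the wild type 1 h call with some single arrays left out. The wild type 3 h call held with each array left out.

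Within the first hour few synthetase genes were called, in shares near or below those of all genes tested. In wild type cells 3 of 34 genes were called higher at 1 h (Sars, Eprs and Cars) and 3 lower (Pars2, Rars2 and Vars), against 10.6% and 13.9% of all genes tested. In deleted cells 4 were higher (Sars, Cars, Eprs and Rars) and 2 lower (Pars2 and Rars2), against 9.1% and 10.2%. With the replicate block the counts were 5 higher and 7 lower in wild type and 6 and 5 in deleted cells, where 43.2% and 36.3% of all genes were called. Without the second deleted 0 h array the deleted cells had 3 calls at 1 h. Centring each array on its median turned the wild type split to 7 higher and 3 lower, and quantile normalization to 6 and 5.

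Sars, the seryl synthetase, was the largest early riser and was picked out after its values were seen. It read 10.82 and 10.47 at 0 h, 11.69 and 11.40 at 1 h, 11.84 and 11.56 at 3 h, 11.46 and 11.41 at 6 h, then 11.05 and 10.80 at 24 h in wild type cells. Deleted cells gave 10.95 and 10.52 at 0 h, 11.85 and 11.48 at 1 h, 11.86 and 11.79 at 3 h, then 10.70 and 10.47 at 24 h. The 1 h arrays already lay above both 0 h arrays in each genotype, by 0.89 ± 0.18 (adjusted p = 0.00138) in wild type and 0.93 ± 0.18 (adjusted p = 0.0012) in deleted cells, and those at 24 h overlapped 0 h. The wild type difference at 24 h, 0.27, was called with the replicate block alone (adjusted p = 0.0216).

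Pars2 and Rars2, the mitochondrial prolyl and arginyl synthetases, dipped at 1 h and then recovered. Pars2 read 8.30 and 8.10 at 0 h, 7.19 and 7.43 at 1 h, 8.26 and 8.33 at 3 h, then 8.87 and 8.63 at 24 h in wild type cells. In deleted cells it went from 8.34 and 8.37 to 7.55 and 7.33 at 1 h and 8.10 and 8.51 at 3 h. The 1 h arrays were the lowest of each genotype, by -0.89 ± 0.16 (adjusted p = 0.000668) and -0.91 ± 0.16 (adjusted p = 0.000671), and both calls held with each array left out. Of the 4 arrays at 1 h, 3 lay below 7.45, the level used as the filter on dim probe sets.

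Rars2 read 9.38 and 9.17 at 0 h, 8.63 and 8.28 at 1 h, 9.99 and 10.09 at 6 h, then 10.04 and 9.93 at 24 h in wild type cells. Its deleted cell arrays read 9.44 and 9.30 at 0 h, 8.96 and 8.76 at 1 h, 9.74 and 9.74 at 6 h, then 9.51 and 9.59 at 24 h. No 1 h array overlapped 0 h in either genotype. The 1 h change was -0.82 ± 0.14 (adjusted p = 0.000365) in wild type and -0.50 ± 0.14 (adjusted p = 0.0169) in deleted cells, and the difference between these changes was not called.

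The mitochondrial genes changed less and less uniformly. At 3 h in wild type cells 3 of 16 were higher and 3 lower (median 0.12), at 6 h 9 were higher and 1 lower (median 0.45), and at 24 h 6 were higher (median 0.36), beside the background shares given for the cytosolic genes. In deleted cells the counts were 3 higher and 2 lower at 3 h (median 0.11) and 4 higher at 6 h (median 0.28). At 24 h limma called 0 of 16 in deleted cells (median 0.07), 0 also at an unadjusted p below 0.05, and the replicate block added Ears2 (-0.35). Ears2, Hars2, Mars2 and Tars2, which charge glutamate, histidine, methionine and threonine tRNA in mitochondria, were called against 0 h at no time in either genotype, and Ears2 was lower at 24 h than at 6 h in wild type cells. Each of these 4 was called with the block at least once, Tars2 for example by 0.47 at 24 h in wild type (adjusted p = 0.000243).

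The tyrosyl gene Yars2 had the largest mitochondrial rise. It read 9.41 and 8.89 at 0 h, 10.46 and 10.20 at 3 h, 10.66 and 10.28 at 6 h, then 10.25 and 9.92 at 24 h in wild type cells, each of these above both 0 h arrays. Its change was 1.32 ± 0.22 at 6 h (adjusted p = 0.000124). In deleted cells Yars2 read 9.50 and 9.35 at 0 h, 10.37 and 9.99 at 3 h, 10.20 and 9.85 at 6 h, then 9.57 and 9.35 at 24 h, and the rise of 0.60 ± 0.22 at 6 h (adjusted p = 0.0416) lost its call with some single arrays left out.

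Nars2, the asparaginyl gene, read 9.12 and 8.58 at 0 h, 9.95 and 9.63 at 3 h, 9.73 and 9.62 at 6 h, then 9.28 and 8.91 at 24 h in wild type cells. In deleted cells it read 9.09 and 8.87, then 9.97 and 9.90 at 3 h, 9.48 and 9.52 at 6 h, then 8.58 and 8.65 at 24 h. Its 3 h rises were nearly equal, 0.94 ± 0.23 (adjusted p = 0.00326) and 0.96 ± 0.23 (adjusted p = 0.00307), and wild type arrays at 24 h overlapped those at 0 h. At 6 h in deleted cells the gain of 0.52 was called with the replicate block alone (adjusted p = 0.00768).

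The isoleucyl, tryptophanyl and alanyl genes rose by smaller amounts. Iars2 read 9.87 and 9.64 at 0 h and 10.46 and 10.30 at 6 h in wild type cells, a rise of 0.63 ± 0.18 (adjusted p = 0.00906), while deleted cells, at 10.00 and 9.79 and then 10.14 and 10.07, gave 0.21 ± 0.18, not called. Wars2 read 8.92 and 8.55 at 0 h and 9.37 and 9.21 at 6 h in wild type cells, and 8.90 and 8.69 and then 9.53 and 9.20 in deleted cells, rises of 0.55 ± 0.17 (adjusted p = 0.013) and 0.57 ± 0.17 (adjusted p = 0.0134). Aars2 read 8.76 and 8.52 at 0 h and 9.17 and 9.17 at 6 h in wild type cells, and 8.82 and 8.66 and then 9.20 and 9.19 in deleted cells. Its 6 h rises were 0.53 ± 0.13 (adjusted p = 0.00254) and 0.46 ± 0.13 (adjusted p = 0.00918). In all 3 genes the 6 h arrays lay above both 0 h arrays of their genotype. Of these 6 h calls, only that of Aars2 in wild type cells held with each array left out.

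Cars2, the mitochondrial cysteinyl synthetase, fell further than any other synthetase gene in both genotypes. It read 9.84 and 9.40 at 0 h, 9.58 and 9.38 at 1 h, 8.36 and 8.16 at 3 h, 9.002 and 8.86 at 6 h, then 9.69 and 9.60 at 24 h in wild type cells. In deleted cells it read 9.74 and 9.40 at 0 h, 8.62 and 8.55 at 3 h, 9.29 and 9.15 at 6 h, then 9.72 and 9.62 at 24 h. The 3 h arrays lay below all others of their genotype and the 24 h arrays overlapped 0 h. Cars2 changed by -1.36 ± 0.16 at 3 h in wild type (adjusted p = 5.11e-06) and by -0.98 ± 0.16 in deleted cells (adjusted p = 0.00014), and both calls held with each array left out. At 6 h the change was -0.69 ± 0.16 (adjusted p = 0.00251) in wild type and -0.35 ± 0.16 in deleted cells, where it was not called without the block (adjusted p = 0.114, and 0.00761 with it).

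Fars2 and Vars2, the mitochondrial phenylalanyl and valyl genes, fell at 3 h by less. Fars2 read 9.15 and 8.74 at 0 h and 8.52 and 8.40 at 3 h in wild type cells (-0.48 ± 0.17, adjusted p = 0.033), and 9.14 and 8.83 and then 8.62 and 8.63 in deleted cells (-0.36 ± 0.17, adjusted p = 0.105, and 0.0068 with the block). Vars2 read 9.27 and 8.99 and then 8.83 and 8.60 in wild type cells, and 9.38 and 9.20 and then 9.01 and 8.73 in deleted cells. The change was -0.42 ± 0.14 in each genotype (adjusted p = 0.0258 and 0.0255). Groups did not overlap for either gene, but these Fars2 and Vars2 calls were lost with some single arrays left out.

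The remaining mitochondrial genes, Lars2 and Sars2, were called higher in wild type cells at 6 h by 0.44 ± 0.16 and 0.66 ± 0.24, and Lars2 also at 24 h by 0.55 ± 0.16. Each of these calls was lost with some single arrays left out. In deleted cells neither was called at any time without the replicate block. With the block both were called there at 6 h (adjusted p = 0.0164 and 0.0224), and Lars2 at 3 h (0.29, adjusted p = 0.0357). Sars2 was also called with the block in wild type cells at 24 h (0.42, adjusted p = 0.0232).

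Set side by side, the cytosolic list moved more than the mitochondrial list. The median cytosolic change exceeded the median mitochondrial change by 0.14, 0.97, 0.70 and 0.49 at 1, 3, 6 and 24 h in wild type cells, and by 0.16, 0.75, 0.55 and 0.16 in deleted cells. The SD between replicate arrays of the list difference, taken from the median deviations on each array, was 0.0663, and every value above was larger. The smallest was the wild type value at 1 h, which was 0.016 without the first wild type 0 h array. On each array, the median cytosolic deviation from the genes' own means went in wild type cells from -0.54 and -0.76 at 0 h to 0.62 and 0.47 at 3 h, then 0.37 and 0.11 at 24 h. The mitochondrial deviation went from -0.07 and -0.35 to 0.05 and -0.15 at 3 h, then 0.22 and 0.12 at 24 h. The mitochondrial 3 h arrays thus overlapped the 0 h range, though the value was higher at 3 h within each replicate number, and the cytosolic arrays did not overlap. No test was made over the lists, since their members were chosen with earlier results known.

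**Figure D2:**
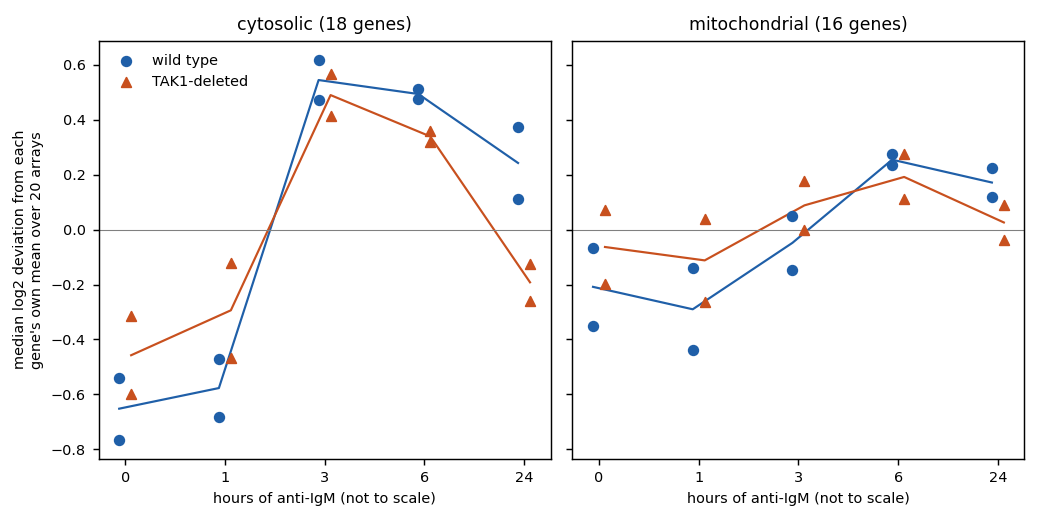
Median log2 deviation of the 18 cytosolic (left) and 16 mitochondrial (right) genes from their own mean over the 20 arrays, one point per array, by time (hours, not to scale) and genotype, with lines through the mean of the 2 arrays. Cytosolic medians climb between 1 and 3 h in both genotypes, and at 24 h the deleted arrays (-0.12 and -0.26) lie below the wild type arrays (0.37 and 0.11).

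The timing of the highest group mean also differed between the compartments. In wild type cells 9 of 18 cytosolic genes peaked at 3 h, 5 at 6 h and 3 at 24 h, while 2 of 16 mitochondrial genes peaked at 3 h, 7 at 6 h and 6 at 24 h. In deleted cells 13 cytosolic genes peaked at 3 h and 1 at 24 h, and 3 mitochondrial genes peaked at 3 h, 9 at 6 h and 1 at 24 h. These counts are descriptions of group means with 2 arrays each.

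Pairing genes by amino acid gave 15 pairs, with Farsa and Farsb both set against Fars2. The cytosolic change was the higher of the pair in 14 of 15 at 3 h, 13 at 6 h and 13 at 24 h in wild type cells, with a median gap of 1.01 at 3 h, and in 15, 14 and 11 pairs in deleted cells. The widest gap was for cysteine, where Cars changed by 1.62 and Cars2 by -1.36 in wild type cells at 3 h, 2.98 apart. Threonine followed, with 1.88 for Tars and 0.04 for Tars2. Tyrosine and asparagine had narrow gaps, since Yars2 (1.18) and Nars2 (0.94) rose along with Yars (1.53) and Nars (1.34). Valine was the exception at 3 h in wild type, with -0.52 for Vars and -0.42 for Vars2.

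**Figure D3:**
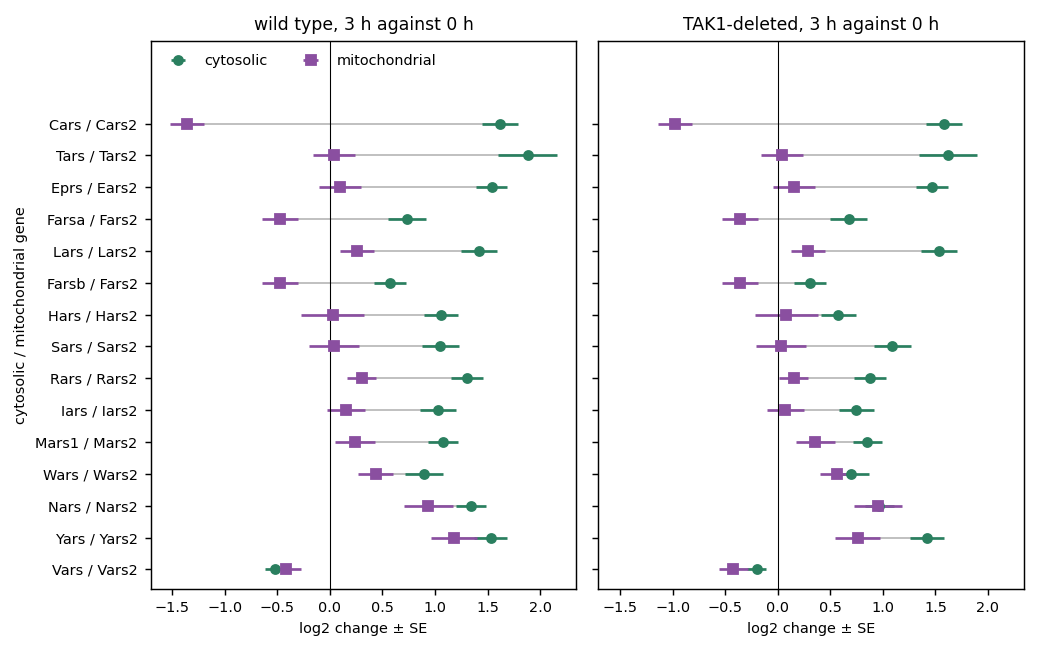
Log2 change from 0 h to 3 h (± SE from limma, 2 arrays per group) of the cytosolic (circles) and mitochondrial (squares) gene for each amino acid, in wild type (left) and deleted cells (right), ordered by the wild type gap. The circle lies to the right of the square in 14 of 15 wild type pairs and 15 of 15 deleted pairs; the Cars and Cars2 pair at the top is the widest apart.

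Within the cytosolic set, members of the multisynthetase complex and other genes were counted apart, with no test between them. Of 7 complex members, 6 were higher at 3 h in wild type (median 1.11), and of 11 others 10 were higher and 1 lower (median 1.06). At 24 h in wild type 7 of 7 complex members and 8 of 11 others were higher, and in deleted cells 4 of 7 and 1 of 11. The catalytic classes, class I and class II, each mix both compartments, and at 3 h in wild type 9 of 18 class I genes and 9 of 15 class II genes were higher.

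Deleted cells made most of the same cytosolic rise at 3 h, and less of it remained at 24 h. At 3 h 15 of 18 cytosolic genes were higher (median 0.87), at 6 h 13 (median 0.83) and at 24 h 5 higher and 1 lower (median 0.23). Over both compartments 18, 17 and 5 of 34 genes were higher at 3, 6 and 24 h, against 19.6%, 18.5% and 14.9% of all genes tested. The 5 at 24 h were Eprs, Gars, Kars, Lars and Qars, and the block raised the count to 8 higher and 2 lower, where 44.6% of all genes were called either way. Without the first deleted 24 h or the second deleted 0 h array, 2 of 34 genes were called at 24 h. Eprs, Gars, Kars and Lars were also the 4 cytosolic genes called at all of 3, 6 and 24 h in deleted cells.

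The fall between 6 and 24 h was measured directly in each genotype. In deleted cells 12 of 34 genes were lower at 24 h than at 6 h and 1 was higher (Qars), against 8.05% and 10.8% of all genes, with a median of -0.31. In wild type cells 3 were lower and 2 higher, against 10.4% and 9.02%, with a median of -0.20. With the replicate block the counts were 18 lower and 2 higher in deleted cells and 14 lower and 3 higher in wild type cells, where 35.7% and 38% of all genes were called either way. Without the second wild type 6 h array no wild type call was left, and the deleted count ranged from 5 to 9 as single arrays were left out, lowest without the second deleted 24 h array. The difference between these changes was called for 0 of 34 genes by limma, against 3.87% of all genes, and with the block for 3, Eprs, Mars1 and Vars, where 10.6% of all genes were called. The difference was negative in all 3, and Vars went from 11.79 to 11.57 between 6 and 24 h in deleted cells but from 11.73 to 11.84 in wild type cells. At an unadjusted p below 0.05 it was 3.

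Direct comparison of the genotypes gave few synthetase calls before 24 h. At 0, 3 and 6 h limma called 0 synthetase genes, against 2.32%, 2.71% and 2.53% of all genes, and 2, 1 and 1 had an unadjusted p below 0.05. Hars, 1 gene, was called at 1 h, against 4.28% of all genes. With the replicate block the counts were 1 at 0 h (Hars), 7 at 1 h (all higher in deleted cells), 1 at 3 h (Vars, higher) and 2 at 6 h (Iars and Yars2, lower), against 6.99%, 12.9%, 8.31% and 12.2% of all genes. Before stimulation 31 of 34 deleted cell means lay above wild type, with a median difference of 0.11, where 53.1% of all genes lay above it with a median of 0.01. At 1 h 33 of 34 lay above it, where 56.8% of all genes did. The erythroid markers, 9 of 9 higher in deleted cells at 0 h and again at 1 h, moved with the genotype at these times. The mean neutrophil level at 0 h was also higher in deleted cells, at 9.74 to 9.77 against 9.21 to 9.25 in wild type. At 1 h it was 9.31 to 9.46 in deleted cells and 8.85 to 8.93 in wild type. Other lists were lower in deleted cells: at 0 h 3 of 6 natural killer, 3 of 6 plasma cell and 2 of 6 T cell markers were called lower, and at 1 h 5, 2 and 4. The mean natural killer level at 0 h was 9.28 to 9.38 in wild type and 8.08 to 8.23 in deleted cells, the plasma cell level 10.21 to 10.36 and 8.80 to 8.99, and the T cell level 9.71 to 10.00 and 8.94 to 9.34. The part of these lists in the result was not tested.

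Hars, the histidyl synthetase, was the gene called at 1 h. It read 9.40 and 9.29 at 0 h, 9.36 and 9.16 at 1 h, 10.33 and 10.48 at 3 h, 10.27 and 10.20 at 6 h, then 10.61 and 10.31 at 24 h in wild type cells. In deleted cells it read 9.88 and 9.67 at 0 h, 10.24 and 9.74 at 1 h, 10.33 and 10.37 at 3 h, 9.99 and 10.13 at 6 h, then 10.04 and 9.79 at 24 h. Deleted arrays were thus above wild type at 0 and 1 h and below it at 6 and 24 h, without overlap. The difference was 0.73 ± 0.16 at 1 h (adjusted p = 0.015) but -0.54 ± 0.16 at 24 h (adjusted p = 0.0397), and the 1 h call was lost without the first deleted or the second wild type 1 h array.

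At 24 h 6 of 34 synthetase genes were called lower in deleted cells, and 29 of the 34 group means lay below wild type. The exceptions were Qars, Cars2, Hars2, Vars2 and Ears2, at 0.01 to 0.21. The median difference was -0.32 over all 34 genes, -0.42 over the cytosolic and -0.10 over the mitochondrial genes, and 0.00 over all genes tested. The 6 called lower were Rars, Eprs, Hars, Mars1, Nars and Rars2, and none was called higher, against 5.18% and 7.04% of all genes. With the replicate block 20 were lower and none higher, against 28.8% of all genes called either way. The synthetase genes read lower on the second than the first 24 h array, by a median of -0.20 in wild type and -0.13 in deleted cells. The fits that left out an array did not include the block. Without the first wild type or the second deleted 24 h array none of the 34 was called, and with the other arrays left out up to 4 were.

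**Figure D4:**
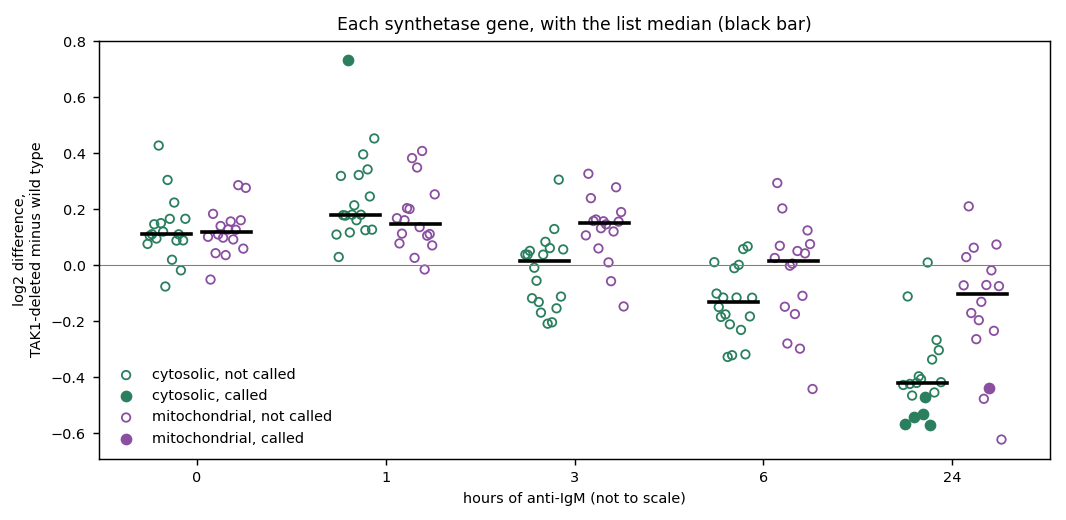
Difference of TAK1-deleted minus wild type group means (log2, 2 arrays per group) for each of the 34 genes by time (hours, not to scale), cytosolic in green and mitochondrial in purple, filled where called by limma without the block. Black bars are list medians, and the cytosolic median goes from above 0 at 0 and 1 h to -0.42 at 24 h.

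The 6 called genes were among 22 of 34 synthetase genes whose arrays did not overlap between the genotypes at 24 h. The share of all genes without overlap was not counted. Rars, the arginyl synthetase of the complex, read 12.35 and 11.99 in wild type and 11.74 and 11.46 in deleted cells, a difference of -0.57 ± 0.15 (adjusted p = 0.0196, and 0.000147 with the block). Eprs read 11.65 and 11.27 against 11.06 and 10.74, a difference of -0.57 ± 0.15 (adjusted p = 0.0223). In both genes the lower wild type array was still above the higher deleted one. Mars1, the methionyl synthetase, read 11.00 and 10.90 against 10.53 and 10.31 (-0.53 ± 0.14, adjusted p = 0.0212). Nars, the asparaginyl synthetase, read 11.69 and 11.40 against 11.09 and 11.06 (-0.47 ± 0.14, adjusted p = 0.0391). Rars2, whose 24 h values are given with its early dip, differed by -0.44 ± 0.14 (adjusted p = 0.0495), the mitochondrial gene nearest the threshold. Yars2 differed by more, -0.62 ± 0.22, at 10.25 and 9.92 against 9.57 and 9.35, and was called with the block alone (adjusted p = 0.0774 without it).

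**Figure D5:**
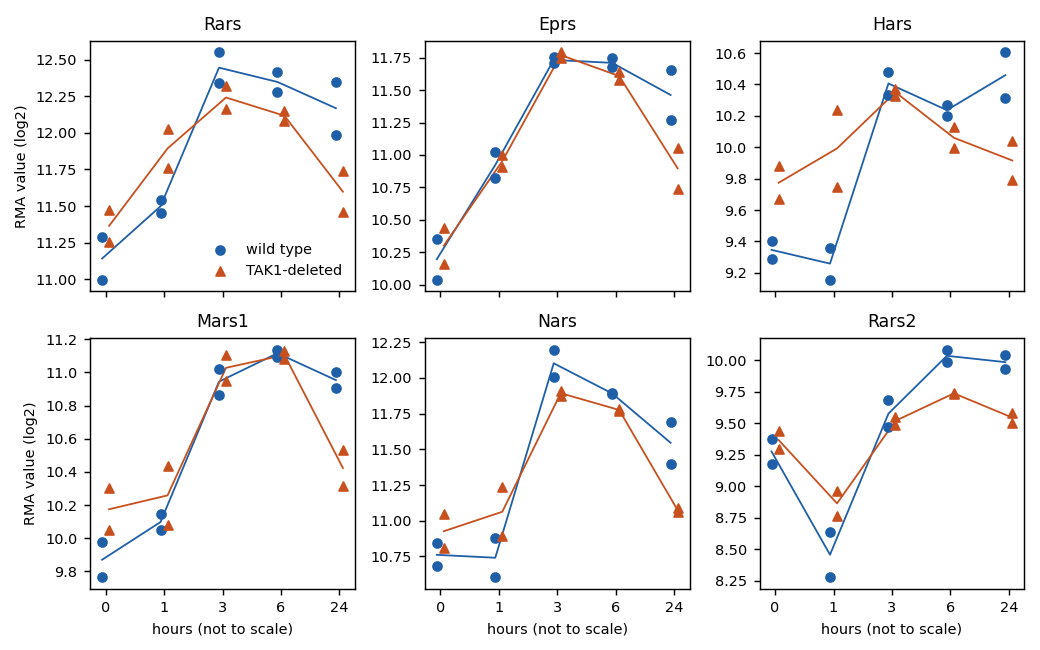
RMA log2 values of the 6 genes called between the genotypes at 24 h, one point per array by time (hours, not to scale), blue circles for wild type and orange triangles for TAK1-deleted cells, with lines through the mean of the 2 arrays; each panel has its own axis, which does not start at 0. At 24 h both deleted arrays lie below both wild type arrays in all 6 panels.

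The change from 0 h to 24 h was itself smaller in deleted cells for 3 genes, against 4.04% of all genes called lower in this comparison. These were Hars (-0.97 ± 0.23, adjusted p = 0.0136), Mars1 (-0.83 ± 0.20, adjusted p = 0.014) and Rars (-0.79 ± 0.21, adjusted p = 0.0271). Their wild type changes at 24 h were 1.11, 1.08 and 1.03 and their deleted cell changes 0.14, 0.25 and 0.23. The block raised the count to 17, all lower, where 22% of all genes were called, and added Yars2 (-0.90, adjusted p = 0.0907 without the block) and Eprs (-0.67, adjusted p = 0.0674 without it) among others. At 1, 3 and 6 h the change differed for 0 genes by limma, against 0.109%, 0.0585% and 0.284% of all genes, and with the block for 0, 0 and 4, against 0.752%, 1.95% and 6.45%. At an unadjusted p below 0.05 the counts were 0, 1 and 3. The synthetase genes also read lower on the second than the first 0 h array, by a median of -0.28 in wild type and -0.26 in deleted cells. The fits that left out an array did not include the block. Without the first wild type 24 h, second deleted 24 h, first deleted 0 h or second wild type 0 h array, 0 of the 3 calls at 24 h were left.

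Genes of other cell types moved with the genotype at 24 h as well. Of 10 monocyte or macrophage markers 9 were higher in deleted cells, of 7 neutrophil markers 7 and of 6 T cell markers 3, while 2 of 7 pan B markers were higher. The mean neutrophil level was 7.61 to 7.77 on the wild type and 9.68 to 9.70 on the deleted 24 h arrays. RMA values carry a background, and none of these lists is at 0. Their part in the synthetase differences was not tested.

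Genes that work beside the synthetases were counted from lists. The 3 scaffold proteins of the multisynthetase complex were all higher at 3, 6 and 24 h in wild type cells. Aimp2 changed by 1.54 ± 0.15 and Eef1e1 by 1.30 ± 0.14 at 3 h, and Aimp1 by 0.42 ± 0.15. In deleted cells all 3 were higher at 3 and 6 h and 2 at 24 h, and Aimp2 (-0.65 ± 0.15) and Eef1e1 (-0.54 ± 0.14) were lower than wild type at 24 h.

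Of 20 tested genes for tRNA processing, modification and export, 16 were higher at 3 h in wild type cells (median 0.71) and 13 in deleted cells (median 0.81), and none was lower. The largest changes in wild type were in Pus7, a pseudouridine synthase (2.65 ± 0.17), Mettl1, a tRNA guanine methyltransferase (2.02 ± 0.22), Trmt61a, the catalytic subunit of the adenine methyltransferase (1.99 ± 0.19), and Nsun2, a cytosine methyltransferase (1.59 ± 0.15). At 24 h 7 of the 20 were lower in deleted cells, Pus7 by -0.79 ± 0.17 (adjusted p = 0.0057). RNA polymerase III, which transcribes tRNA genes, had 6 of 12 tested genes higher at 3 h in each genotype, Polr3d by 1.59 ± 0.14 in wild type, and 0 called between the genotypes at 24 h.

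On the mitochondrial side, 4 of 8 tested translation factors were higher at 3 h in wild type cells and 2 in deleted cells, led by the recycling factor Mrrf (1.17 ± 0.18 in wild type). Of 4 tested genes for mitochondrial glutamine and formylmethionine charging none was higher at 3 h and Qrsl1, a subunit of the amidotransferase, was lower in wild type (-0.43 ± 0.14). Of 6 genes for selenocysteine charging and use, 3 were higher and 1 lower at 3 h in wild type, with Sephs2, which makes selenophosphate, at 0.95 ± 0.14. Cytosolic elongation factors moved little at 3 h, with 1 of 4 tested genes higher in each genotype (Eef1d, 0.41 ± 0.12 in wild type). The synthetase-like and proofreading genes had 0 of 5 called at 3 h in either genotype and Aarsd1 (-0.56 ± 0.15) and Tarsl2 (-0.48 ± 0.15) lower in deleted cells at 24 h.

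The ATF4 list, genes of the amino acid response and amino acid supply, had 13 of 17 higher at 3 h in each genotype (median 1.24 in both). Amino acid transporters led it, Slc7a11 at 2.73 ± 0.19, Slc7a5 at 2.55 ± 0.10 and Slc7a1 at 2.23 ± 0.11 in wild type, followed by the folate enzyme Mthfd2 at 2.06 ± 0.12. At 24 h the genotypes differed in both directions, with 2 of the 17 higher in deleted cells (Slc7a11 by 1.60 and Sesn2 by 0.59) and 3 lower, Slc7a5 by -0.63 and Mthfd2 by -0.40 among them. Myc, the transcription factor that binds E-boxes, changed by 2.30, 2.02, 1.79 and 1.02 at 1, 3, 6 and 24 h in wild type and by 1.93, 1.60, 1.10 and 0.04 in deleted cells. At 24 h Myc was lower in deleted cells by -0.75 ± 0.15 (adjusted p = 0.00412), and its change from 0 h differed by -0.99 ± 0.22 (adjusted p = 0.00858). Whether either factor acts on the synthetase genes was not tested.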

How the data were processed

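Per the submitters' processing notes, the authors used RMA and Affymetrix Expression Console 1.0 to make the deposited log2 values; the annotation behind the probe sets is not given in the sources used here. The table of 35556 probe sets was used as deposited. Genes were named through the platform annotation, and probe sets with 1 symbol that reached the median of all values (7.45) on at least 2 arrays were kept, with the brightest per gene, which left 11968 genes.

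A mean per group was estimated over all 20 arrays at once with R 4.3.3 and limma 3.58.1, using eBayes with trend and 10 residual degrees of freedom, for 20 contrasts, and p-values were adjusted by Benjamini-Hochberg within each, two-sided. The fit was also run on simulated arrays with independent noise. These lack the shared replicate deviations of the real arrays, so that run does not check the fit for them. Replicate numbers come from the labels' sample names. The replicate differences of groups correlated over 0.1 in 45 of 45 group pairs (0.191 to 0.769). A fit with the number as a block is therefore given for some of the calls it changes.

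Genes given array by array were those with the 4 largest and 2 smallest changes per compartment and genotype, averaged over 3, 6 and 24 h. Those called between genotypes or called lower than at 0 h were also given. Other genes that fell without overlap, such as Ears2, were not all given. List genes were up to 4 called ones. The members and lists were chosen with earlier results of these data known. Alternatives were the block, no filter, quantile normalization, centring, the compared groups alone, probe set means, the other Iars probe set (added after seeing the data) and leaving out each array. The number of arrays limits the precision.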

Additional observations from a re-analysis of the deposited data

Results flagged for a closer look

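The change from 0 h to 24 h differed between the genotypes by the test of that difference for Hars (-0.97), Mars1 (-0.83) and Rars (-0.79), each smaller in TAK1-deleted cells. In each of the 3 the deleted cell mean also started higher at 0 h, by 0.43 in Hars, 0.30 in Mars1 and 0.22 in Rars. None of these was called without the block. The difference in change thus joins a higher start and a lower end. With all arrays and the replicate block, limma's adjusted p was 0.000468 for Hars, 9.9e-05 for Mars1 and 0.00023 for Rars. The fits that left out an array did not include this block. For each of the 3 genes the call was lost in 4 of the 8 fits that left out 1 array.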

How the results depend on the processing

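No call changed direction under any alternative, and of 153 calls of a synthetase gene in a contrast 66 were lost in at least 1 fit that left out an array, 14 when the compared groups were fitted alone, 12 with no filter on dim probe sets, 2 with centring on the median and 0 with the block or quantile normalization. Counts of synthetase genes called under each alternative follow where they moved by over 1.5 times. With the replicate block there were 12 at 1 h in wild type and 11 in deleted cells, 10 at 24 h in deleted cells, 1, 7, 1, 2 and 20 between the genotypes at 0, 1, 3, 6 and 24 h, 4 and 17 for the difference in change at 6 and 24 h, 17 and 20 for 24 h against 6 h in wild type and deleted cells, and 3 for the difference between those falls. Quantile normalization gave 11 at 1 h in wild type, 10 at 24 h in deleted cells, 2, 4, 1 and 13 between the genotypes at 0, 1, 3 and 24 h, 11 for the difference in change at 24 h, 11 (3 higher and 8 lower) for 24 h against 6 h in wild type and 2 for the difference between the falls. Centring on the median gave 10 at 1 h in wild type, 3 and 18 between the genotypes at 1 and 24 h, 15 for the difference in change at 24 h, 14 (3 higher and 11 lower) for 24 h against 6 h in wild type and 2 for the difference between the falls. No filter gave 3 between the genotypes at 24 h, and fitting the compared groups alone gave 0 between them at 1 h and 11 for 24 h against 6 h in wild type. The cause was not tested.

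The cytosolic minus mitochondrial median change became 0.62 at 6 h in wild type with quantile normalization, and 1.09 at 3 h and 0.58 at 24 h in wild type with probe set means or with the other Iars probe set, which was chosen after seeing the data. Leaving out 1 array gave 0.016 to 0.156, 0.92 to 1.08, 0.69 to 0.73 and 0.41 to 0.56 at 1, 3, 6 and 24 h in wild type and 0.15 to 0.20, 0.67 to 0.85, 0.52 to 0.61 and 0.17 to 0.17 in deleted cells. Counts with 1 array left out ranged over 4 to 5, 19 to 21, 18 to 24 and 15 to 22 at these times in wild type and 3 to 6, 15 to 19, 12 to 16 and 2 to 6 in deleted cells, 0 to 1 and 0 to 4 between the genotypes at 1 and 24 h, 0 to 5 for the difference in change at 24 h, and 0 to 3 and 5 to 9 for 24 h against 6 h in wild type and deleted cells. In these fits, which did not include the replicate block, a lone array is assumed to vary like the other groups. None of the calls between the genotypes held with each array left out. With 2 arrays a group, and RMA background in the values, small changes and changes of dim genes can be missed or understated.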
